A study of Bos taurus with 16 samples.

Results

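The genes described here are transporters that carry neutral amino acids, methionine among them, across the plasma membrane, measured in preimplantation embryos of cows fed with or without added methionine. They were chosen by symbol, as the rows of the count tables whose gene name was one of 10 transporter symbols. The tables hold 9 of the 10, each as a single locus, among 22358 loci in all. The tenth, SLC6A14, was not analysed here. The study asked whether methionine in the diet of the dam alters the transcriptome of the early embryo. Expanded blastocysts were flushed from 8 superovulated Holstein dairy cows after insemination, and each cow contributed 2 pools of embryos. The control treatment had 4 cows (pools C1.1 to C4.2) and the methionine-rich treatment had the other 4 (pools M5.1 to M8.2), which received the same basal diet with rumen-protected methionine added. The sample labels call the tissue IVF embryos, whereas the methods of the study describe embryos recovered from inseminated cows. The pools held several or, in some cases, single blastocysts, and their RNA was amplified before sequencing, so the 2 pools of a cow share a dam and pools differ in starting material. In the study's listing, most methionine-rich pools held more blastocysts than any control pool. Most also had a lower RNA quality number than any control pool for which one was given. Neither difference was adjusted for.

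Methionine is an essential amino acid, so an embryo takes it up from the fluid around it. System L carries large neutral amino acids by exchange. Its light chains, SLC7A5 and SLC7A8, each pair with the heavy chain SLC3A2, which brings them to the cell surface, and SLC43A2 is a facilitator of the same class of substrates. System A, formed by SLC38A1, SLC38A2 and SLC38A4, uses sodium to take up small neutral amino acids and methionine. SLC6A14 is system B0,+, which is known from the trophoblast of the blastocyst. System ASC, formed by SLC1A4 and SLC1A5, exchanges alanine, serine, cysteine and, in the case of SLC1A5, glutamine, and does not favour methionine.

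Counts per pool totalled between 5624126 and 7826542 in 15 pools and 1745048 in pool C3.2. The study set C3.2 aside because a low share of its mapped reads fell on annotated exons, and it was likewise kept out of the main comparison here. This left 7 control and 8 methionine-rich pools, and the mean of control cow 3 rests on pool C3.1 alone. CPM is the count of a locus scaled to a total of 1000000 counts in its pool, and 3 counts were worth 0.383 to 0.533 CPM in these pools. The summed level of 7 trophectoderm markers was between 3781 and 9678 CPM in the control pools and between 3051 and 7036 CPM in the methionine-rich pools, and that of 3 inner cell mass markers was between 33.1 and 115 CPM and between 34.0 and 82.0 CPM, respectively. KRT18 had the most counts of the 7 in every pool, while CDX2 had 0 in C4.1, M8.1 and M8.2. The inner cell mass marker NANOG had at most 5 counts in C4.1, M5.1 and M6.1. Of 3 hypoblast markers, GATA6 and PDGFRA were counted in every pool and SOX17 had 0 counts in all, with a summed level between 91.2 and 234.3 CPM in control and between 104.9 and 336.3 CPM in methionine-rich pools. Leukocyte transcripts were most abundant in one control pool, C2.1. The summed level of 9 leukocyte markers was 2440 CPM there, against 5.94 CPM at the median of the control pools and at most 7.10 CPM in a methionine-rich pool, with CD3E at 0 in every pool. Some were also counted in other control pools, namely 191 counts of NKG7 in C1.2, 98 of CD53 and 40 of SPI1 in C3.1, and 29 of CD53 in C1.1. PTPRC, another of the 9, was not highest in C2.1: it had 18 counts there, 48 in methionine-rich pool M8.1 and 278 in C3.2.

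None of the transporters differed between treatments by the criterion of the study, an FDR under 0.1 in edgeR's exact test with at least a 2-fold difference. Of the 9, 7 had enough reads to be tested (summed CPM of at least 15), and 0 of these 7 were called, where 1.05% of the 10519 loci tested were called in the fit made here. The study itself reported a larger number of genes called at this threshold. The quasi-likelihood test of edgeR and limma voom with a random effect for cow also called 0 of the 7, and these 2 tests called 0 loci in all. At an unadjusted p under 0.05, the exact test, the quasi-likelihood test and DESeq2 each selected 1 of the 7, SLC7A5, and voom selected 0, where the exact test selected 8.54%, the quasi-likelihood test 8.64%, DESeq2 7.42% and voom 4.0% of all loci. The log2 fold change, methionine-rich over control, was above 0 for 5 of the 7, beside 46.5% of all loci, and all 7 lay within 2-fold, as did 7918 of the 10519. The median was 0.22 over the 7 and -0.05 over all loci. For 0 of the 7 did the cow means of the treatments separate without overlap, which they did for 2.21% of all loci. In pooled embryos, fewer cells of a type and less RNA per cell cannot be told apart.

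**Figure D1:**
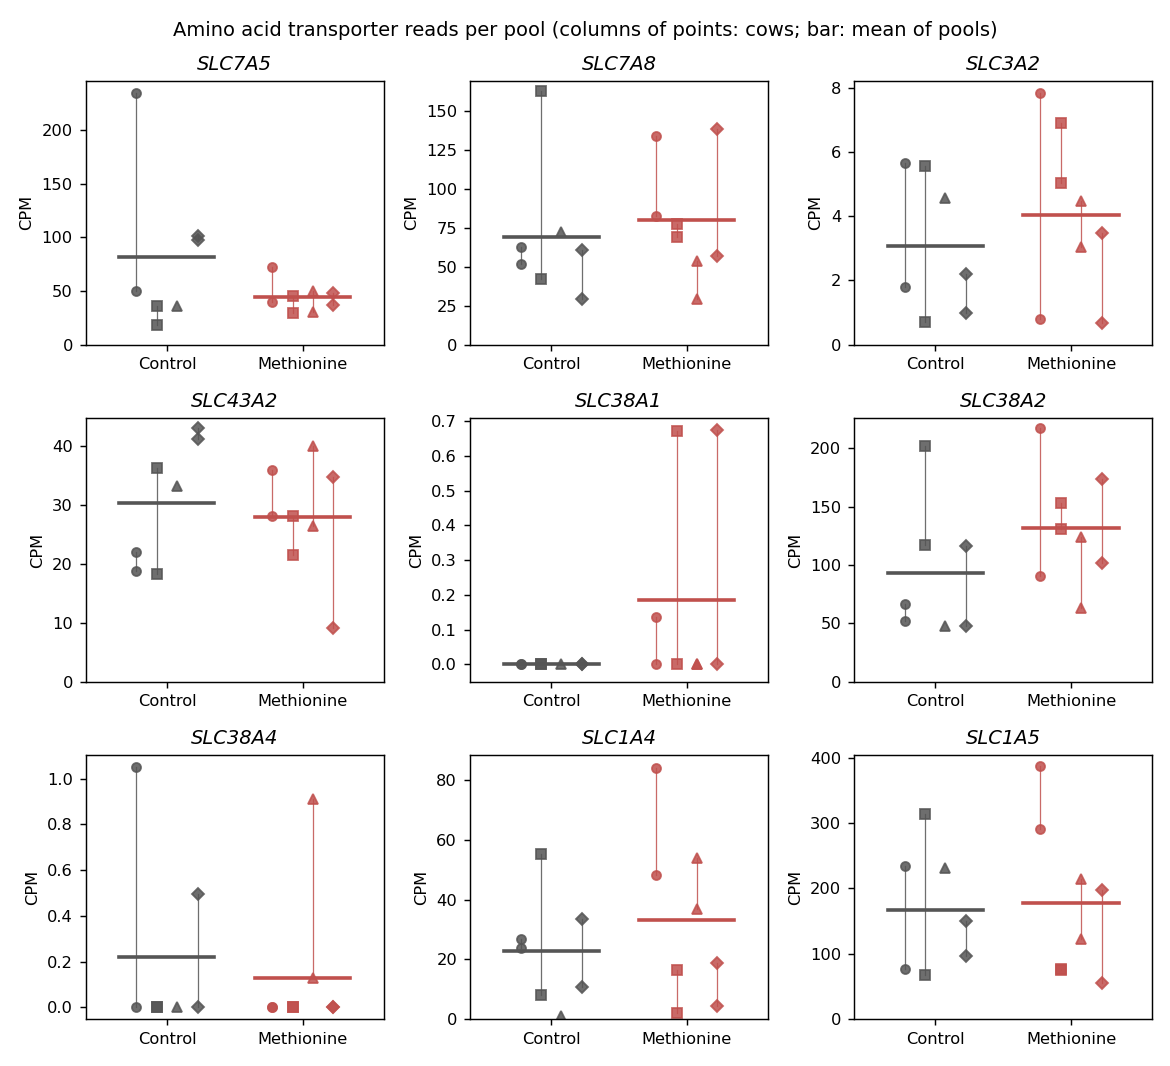
CPM of each of the 9 transporters (vertical axes, linear, one panel per gene) in the 7 control and 8 methionine-rich pools, with the pools of a cow joined by a thin line and the mean over the pools of a treatment as a bar. The treatments overlap in every panel, and the single highest SLC7A5 value, 234.6 CPM, is pool C1.1.

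SLC7A5, the light chain of system L also known as LAT1, had the largest difference among the tested transporters in the exact test. Its counts in the control pools were 105 at the lowest, 332 at the median and 1778 at the highest, and in the methionine-rich pools 177, 316.5 and 527. The medians were close, and the treatments overlapped: the control pools held both the lowest value (C2.1) and the 3 highest (C1.1, C4.2 and C4.1). Averaged by cow, SLC7A5 was 76.2 ± 54.6 CPM in control and 44.1 ± 8.41 CPM in methionine-rich cows (SD, n = 4 and 4). The log2 fold change was -0.94 by the exact test of edgeR, with an FDR of 0.506. By voom its 95% interval ran from -1.44 to 0.39. The exact permutation test of the cow means gave a two-sided p of 0.429, where 70 assignments of the cows allow 0.0286 at the smallest. Pool C1.1 alone held 26.9% of the SLC7A5 counts of the 15 pools, and without the cow it came from the log2 fold change was -0.38.

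SLC7A8, the other light chain, also known as LAT2, had counts of 229, 370 and 1052 (lowest, median and highest) in the control pools and 228, 484 and 997 in the methionine-rich pools. The lowest values of the treatments were 1 count apart, and the highest were in C2.2 and M8.1. The cow means were 69.4 ± 24.8 CPM in control and 80.3 ± 29.8 CPM in methionine-rich cows (SD, n = 4 and 4). The log2 fold change was 0.22 by the exact test of edgeR, with an FDR of 1.0, and the voom interval was from -0.51 to 1.003. The exact permutation p over cows was 0.6.

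SLC3A2, the heavy chain, was counted at a far smaller number of reads than either light chain. It had 4, 17 and 43 counts in the control pools and 5, 30 and 57 in the methionine-rich pools, again overlapping. The cow means were 3.26 ± 1.26 CPM and 4.03 ± 1.61 CPM (SD, n = 4 and 4), and the log2 fold change was 0.37 (edgeR's exact test, FDR 1.0). The voom interval was wide, from -1.26 to 1.80, and the exact permutation p was 0.457. SLC43A2, the facilitator known as LAT4, was the least variable of the tested transporters, with a coefficient of variation of 33.6% over the 15 pools. Its counts were 103, 235 and 335 in the control pools and 66, 207 and 273 in the methionine-rich pools. The cow means were 30.8 ± 9.22 CPM and 28.0 ± 5.45 CPM (SD, n = 4 and 4), the log2 fold change was -0.12 (edgeR's exact test, FDR 1.0) with a voom interval from -0.93 to 0.59, and the sign turned when control cow 4 was left out (0.13).

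The heavy and light chains did not keep a fixed ratio of reads. Since transcript lengths were not at hand, levels of different genes were not compared, and only the spread of a ratio over pools is described. The reads of SLC7A5 per read of SLC3A2 ranged from 4.32 in M6.2 to 98.7 in C4.1, with a median of 16.4 over 15 pools. Those of SLC7A8 per read of SLC3A2 ranged from 6.51 in M7.1 to 104 in M5.2, with a median of 17.7. Both ratios are imprecise at the upper end, since SLC3A2 had 6 counts in C4.1 and in M5.2. The reads of SLC7A8 per read of SLC7A5 ranged from 0.269 in C1.1 to 4.55 in C2.2, and were above 1 in 4 of 7 control and 7 of 8 methionine-rich pools.

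Over the 8 cow means of log2(CPM + 1), SLC3A2 and SLC7A5 had Pearson's r = -0.33 (exact permutation p = 0.429, adjusted over the 2 relations 0.857) and Spearman's rho = -0.38 (exact permutation p = 0.360, adjusted 0.703). For SLC3A2 and SLC7A8, r was 0.048 (exact permutation p = 0.906, adjusted 0.906) and rho was -0.17 (exact permutation p = 0.703, adjusted 0.703). Without the 2 cows farthest from the median of SLC3A2 (cows 6 and 4), r was 0.14 and rho -0.086 for SLC7A5, and r was -0.50 and rho -0.66 for SLC7A8, so the sign of r turned for both while that of rho did not. Without pool C2.1, which had 4 counts of SLC3A2, r was -0.58 (exact permutation p = 0.118, adjusted 0.236) and rho -0.74 (exact permutation p = 0.0458, adjusted 0.0917) for SLC7A5, and r was 0.37 and rho 0.24 for SLC7A8. Cows of both treatments enter these relations, and 4 cows are too few for a value within a treatment.

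**Figure D2:**
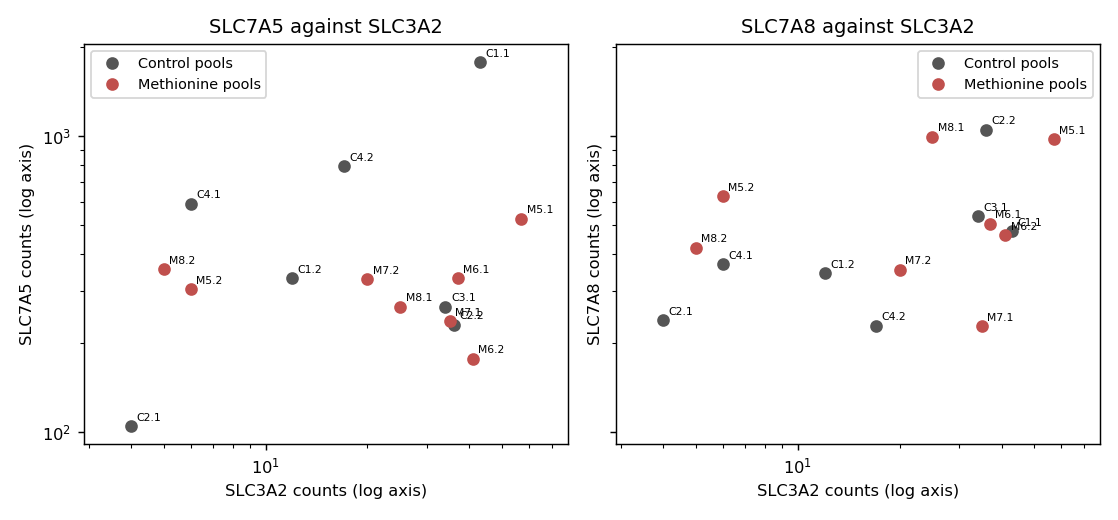
Counts of SLC7A5 (left) and SLC7A8 (right) against counts of the heavy chain SLC3A2, both on log axes, one point per pool with its name. SLC3A2 runs from 4 to 57 counts, and pools with few SLC3A2 reads, such as C4.1 (6) and M5.2 (6), still held more reads of the light chains than C2.1 (4).

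SLC38A2, the system A transporter known as SNAT2, whose transcript is known to respond to amino acid supply, had counts of 288, 505 and 1307 in the control pools and 494, 797.5 and 1577 in the methionine-rich pools. The ranges overlapped, with C2.2 among the high pools and M7.1 the lowest methionine-rich pool. The cow means were 87.2 ± 50.3 CPM in control and 131.8 ± 26.3 CPM in methionine-rich cows (SD, n = 4 and 4), and all 4 methionine-rich cows lay above the control mean, while 0 of them lay above every control cow. The log2 fold change was 0.51 by the exact test of edgeR, with an FDR of 0.843, and the voom interval was from -0.06 to 1.28. The exact permutation p over cows was 0.2. The value rested on which control pools entered: with pool C3.2, which had 604 counts (346.1 CPM), the log2 fold change was -0.22, and without control cow 2 it was 0.95.

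The other system A transporters, SLC38A1 (SNAT1) and SLC38A4 (SNAT4), were near or below what this depth can show. SLC38A1 had 0 counts in all 7 control pools. The methionine-rich pools held 10 counts of it, 1 in M5.1, 4 in M6.2 and 5 in M8.2. SLC38A4 had 7 counts in C1.2 and 3 in C4.1, 6 in M7.2 and 1 in M7.1, and 0 in the rest of the 15 pools. Neither was tested. These 3 genes have consecutive locus numbers in the tables (XLOC_016970 for SLC38A4, XLOC_016971 for SLC38A2 and XLOC_016972 for SLC38A1), so that a locus with at least 288 counts in each of the 15 pools stood between 2 with at most 7.

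Of the system ASC transporters, SLC1A4, known as ASCT1, was among the more variable, with a coefficient of variation of 84.8% over the 15 pools. Its counts were 7, 179 and 357 in the control pools and 14, 211.5 and 611 in the methionine-rich pools. The lowest pools were C3.1 and M6.1 and the highest C2.2 and M5.1. The cow means were 19.97 ± 13.3 CPM and 33.1 ± 27.6 CPM (SD, n = 4 and 4), with a log2 fold change of 0.53 (edgeR's exact test, FDR 0.998), a voom interval from -1.30 to 2.25 and an exact permutation p of 0.429. Without methionine-rich cow 5 the log2 fold change was 0.10. Without control cow 3, whose value was the 0.94 CPM of pool C3.1 alone, it was 0.33.

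SLC1A5, known as ASCT2 and a glutamine transporter, had 381, 908 and 2031 counts in the control pools and 410, 1183 and 2808 in the methionine-rich pools. The cow means were 175.3 ± 46.4 CPM and 177.3 ± 114 CPM (SD, n = 4 and 4). The treatment means were nearly the same, and the methionine-rich cows held both the lowest mean (75.7 CPM, cow 6) and the highest (339 CPM, cow 5). The log2 fold change was 0.04 (edgeR's exact test, FDR 1.0), the voom interval was from -0.89 to 0.88, and the exact permutation p was 0.971. With pool C3.2, which had 1030 counts (590.2 CPM), it was -0.64, again without a call (FDR 0.801).

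**Figure D3:**
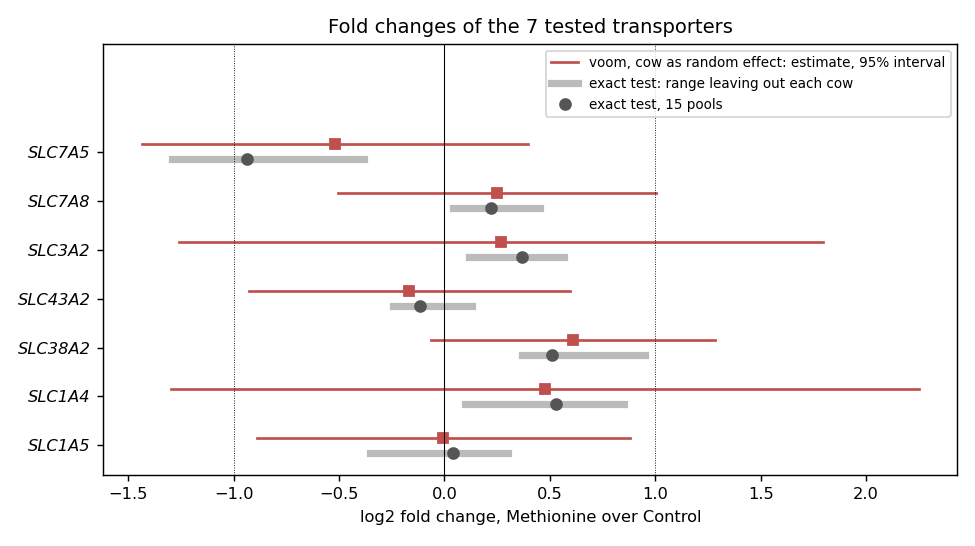
Log2 fold change, methionine-rich over control, of the 7 tested transporters. Grey points are edgeR's exact test on 15 pools with a band for the range when each cow is left out, red squares are limma voom estimates with 95% intervals, and dotted lines mark 2-fold; every voom interval includes 0, and the bands of SLC43A2 and SLC1A5 cross it.

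Grouped by transport system, the methionine-carrying transporters (system L with its heavy chain, and system A) summed to 267.0 ± 53.0 CPM in control and 288.6 ± 58.8 CPM in methionine-rich cows (SD, n = 4 and 4). The log2 ratio of these means was 0.11. System ASC summed to 195.3 ± 40.1 CPM and 210.4 ± 140 CPM, a log2 ratio of 0.11 as well. Both differences were smaller than the spread between cows, and the sums were not tested. Neither sign was stable: the log2 ratios were -0.045 (methionine-carrying) and -0.14 (ASC) without pool C2.1, and -0.032 and -0.19 with pool C3.2 added. Without methionine-rich cow 5, that of ASC was -0.43. Within the methionine-carrying group, system L was 179.6 ± 34.3 CPM in control and 156.4 ± 35.2 CPM in methionine-rich cows, and system A, nearly all of it SLC38A2, was 87.4 ± 50.2 CPM and 132.1 ± 26.1 CPM. Without SLC38A2 the log2 ratio of the methionine-carrying sum was -0.20.

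The makeup of the transporter reads varied widely between pools of both treatments. The methionine-carrying share of the reads of the 9 genes was between 40.5% (C1.2) and 79.4% (C1.1) among control pools (median 60.8%) and between 42.4% (M5.2) and 84.1% (M8.2) among methionine-rich pools (median 53.8%). SLC1A5 had the most reads of the 9 in 4 of 7 control and 5 of 8 methionine-rich pools, SLC38A2 in 2 and 3, and SLC7A5 in 1 control pool, C1.1. These counts are of reads from amplified RNA, and how far they depend on transcript length or on the amplification was not tested.

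**Figure D4:**
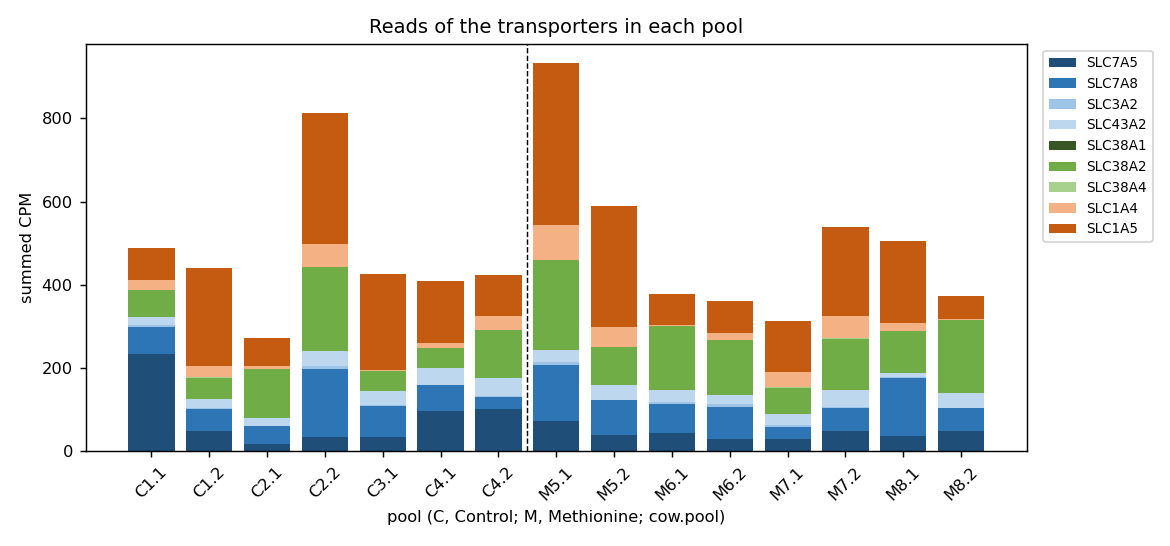
Summed CPM of the 9 transporters in each of the 15 pools, stacked by gene, with system L in blue, system A in green and system ASC in orange and control pools left of the dashed line. The sums run from 272.9 CPM in C2.1 to 931.5 CPM in M5.1, and SLC7A5 is the tallest block in C1.1 alone.

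Several transporters were high in the same pools. Pool M5.1 had the highest CPM of 5 of the 7 tested transporters among methionine-rich pools (SLC7A5, SLC3A2, SLC38A2, SLC1A4 and SLC1A5), and C2.2 the highest of 4 of 7 among control pools (SLC7A8, SLC38A2, SLC1A4 and SLC1A5). These 2 pools also had the largest TMM normalization factors, 1.33 and 1.20. After division by these factors, M5.1 was highest for 3 of 7 and C2.2 still for 4 of 7. Pool C2.1, which held most of the leukocyte transcripts, had the lowest CPM of 4 of 7 among control pools, and of 3 of 7 after division by the TMM factors. The part of the leukocyte transcripts in this was not tested. Among pairs of the 7, Spearman's rho of CPM over 15 pools was highest for SLC1A4 and SLC1A5 (0.67), both of system ASC, and was 0.004 for SLC7A5 and its heavy chain. All pairs share libraries and depth, and cows of both treatments enter.

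The loci most like the 3 transporters with the highest mean CPM, by Spearman's rho of log2(CPM + 1) over the 15 pools among 10519 loci, were INPP5A (0.89), SMARCA4 (0.89) and C5H12orf32 (0.89) for SLC1A5, HSPA14 (0.88), TAX1BP1 (0.84) and ECHDC1 (0.84) for SLC38A2, and C20H5orf34 (0.91) and LHX8 (0.89) for SLC7A8. They are the highest of many and are given as a description.

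Other genes of amino acid transport and sensing were examined in the same fit. For these genes ± is the SD over pools rather than over cows, and the pools of a cow are not independent. Of 39 other plasma membrane or related amino acid transporters, 35 were in the tables, as 36 loci, and 14 of these loci had enough reads. The exact test called 0 of the 14, with 1 at an unadjusted p under 0.05, as did the quasi-likelihood test and DESeq2, and voom called 0 with 2. Over all loci the exact test called 1.05%, and 8.54% (exact test), 8.64% (quasi-likelihood test), 7.42% (DESeq2) and 4.0% (voom) had an unadjusted p under 0.05. Of the 14, 4 had a log2 fold change above 0, beside 46.5% of all loci, and the median was -0.50, beside -0.05. The 3 with the highest CPM were SLC1A3, SLC1A1 and SLC43A1. SLC1A3, a glutamate transporter, was 210.7 ± 151.7 CPM over 7 control and 119.4 ± 67.1 CPM over 8 methionine-rich pools (log2 fold change -0.72, exact test of edgeR, FDR 0.688). Its medians were closer, 141.8 and 114.9 CPM, and C2.2 held 19.97% of its counts. SLC1A3 was among those with an unadjusted p under 0.05 by voom. SLC1A1 is another glutamate transporter (log2 fold change 0.41). SLC43A1 is a system L facilitator related to SLC43A2 (log2 fold change -0.54). SLC38A7, a relative of SLC38A2, is named after its values were seen: it was 31.2 ± 10.9 CPM over 7 control and 16.5 ± 7.16 CPM over 8 methionine-rich pools, with cow means that did not overlap, as in 2.21% of all loci (exact permutation p = 0.0286, the smallest these cows allow, adjusted over all loci 1.0). Its log2 fold change was -0.96, with an FDR of 0.482 in edgeR's exact test.

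Of 28 genes of the mTORC1 kinase complex and its amino acid inputs, 26 were in the tables and 22 were tested. The exact test, the quasi-likelihood test, DESeq2 and voom each called 0 of the 22, with 0 at an unadjusted p under 0.05, where the exact test called 1.05% of all loci and 8.54% had such a p. The median log2 fold change was -0.07 with 9 of 22 above 0. The 3 with the highest CPM were LAMTOR3 (log2 fold change 0.10) and LAMTOR2 (0.22), subunits of the Ragulator scaffold at the lysosome, and RHEB (0.03), the GTPase that activates the kinase. MTOR itself was not called with 15 pools and was called with all 16 (log2 fold change -5.96, edgeR's exact test, FDR 0.00922), where C3.2 held 576 of its counts, against 135 in the other 15 pools together.

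Of 17 genes of the amino acid response and serine synthesis, 16 were in the tables and 14 were tested, of which the exact test, the quasi-likelihood test, DESeq2 and voom each called 0, with 0 at an unadjusted p under 0.05, again beside 1.05% called and 8.54% with such a p over all loci in the exact test. The median log2 fold change was 0.09, with 8 of 14 above 0. ATF4, the transcription factor of this response and a regulator of several of the transporters above, was 301.4 ± 66.0 CPM over 7 control and 418.7 ± 165 CPM over 8 methionine-rich pools (log2 fold change 0.44, edgeR's exact test, FDR 0.845). DDIT4, an inhibitor of mTORC1 signalling (log2 fold change 0.07), and EIF2S1, the initiation factor subunit that the response phosphorylates (0.28), were the others of highest CPM.

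**Figure D5:**
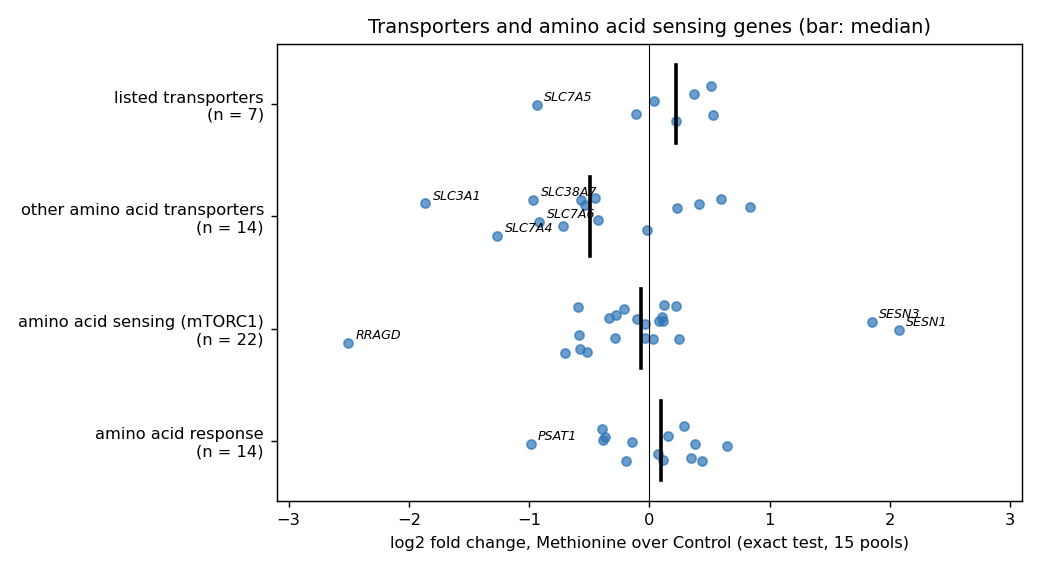
Log2 fold change, methionine-rich over control (edgeR's exact test, 15 pools), of the 7 tested transporters and of the tested genes of the other lists, one point per locus with the list's median as a bar and genes beyond 0.9 in size named. The medians are 0.22, -0.50, -0.07 and 0.09 from top to bottom, and no gene in the plot was called.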

How the data were processed

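The authors amplified the RNA of 16 blastocyst pools, aligned single-end reads to bosTau7 (cattle) using Tophat 2.0.4, merged Cufflinks 2.0.2 transcripts with the NCBI annotation, and obtained gene counts by htseq-count (strand setting not given in the sources used here). The deposited counts are whole numbers, without normalization, in 22552 rows per pool. Of 22358 loci, 182 are listed under several gene names in 376 rows, and these were used once each.

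Loci with summed CPM of at least 15 over 15 pools (10519) were compared with the exact test of edgeR 4.0.16 in R 4.3.3, with TMM normalization, common and tagwise dispersions and Benjamini-Hochberg adjustment over all loci. Library sizes in the fits were edgeR's default, the sums over the loci kept. This was settled after both it and totals over all loci had been run, and both are given. CPM values use pool totals. The quasi-likelihood test, DESeq2 1.42.0 and limma 3.58.1 (voom, cow as a random effect, 95% intervals) were alternatives. Cow means were compared by two-sided exact permutation tests. The code was tested on simulated data.

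Transporters were named by symbol, and from each other list the called genes and the 3 of highest CPM. The 3 loci most like each of 3 transporters were sought, and 1 of those for SLC7A8 is not reported here. The transporters and lists were chosen with earlier results of these data known. Pool C2.1 was left out in an alternative. The floor of 3 counts covers counting error only. The pools of a cow are not independent, and p-values over pools measure the spread between pools. Numbers of blastocysts, RNA quality, sire and lane were not used. No sequences, transcript lengths or coordinates of bosTau7 were at hand.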

Additional observations from a re-analysis of the deposited data

Results flagged for a closer look

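In 4 of 18 groups of pools checked (9 transporters in 2 treatments), a single pool stood apart from the others by Dixon's criterion, where chance marks about 1 in 20 groups of normally distributed values. CPM values are skewed and some groups are mostly 0, and the rate of chance marks in such groups was not measured. SLC7A5 was 234.6 CPM in C1.1, against 18.7 to 101.6 CPM in the other control pools, and 72.6 CPM in M5.1, against 29.8 to 50.0 CPM in the other methionine-rich pools. SLC7A8 was 162.8 CPM in C2.2, against 29.4 to 72.3 CPM in the other control pools. The check used CPM without the TMM factors. After division by those factors, SLC7A5 in M5.1 was 54.72, close to 52.15 in M8.2. SLC7A5 in C1.1 was then 238.9, against 103.8 in C4.1, and SLC7A8 in C2.2 was 135.9, against 75.05 in C3.1. The check was not repeated on the divided values. SLC38A4 was 0.912 CPM in M7.2, where 6 reads were counted, against at most 0.128 CPM in the other methionine-rich pools.

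Pool C3.2, which was left out of the comparison, had more of 3 transporters than any of the 7 other control pools. SLC38A2 was 346.1 CPM there, against 47.5 to 202.3 CPM. SLC1A5 was 590.2 CPM, against 67.7 to 314.3 CPM. SLC38A4 was 14.3 CPM, from 25 reads, against at most 1.05 CPM. In the same pool SLC7A8 had 4 counts, and SLC3A2 and SLC43A2 had 0, which at its depth allows up to 1.72 CPM.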

How the results depend on the processing

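Under 22 alternatives, 0 of the transporters fitted were called. These were 9 with no filter but 1 count, 8 with all 16 pools and 7 otherwise. Of 154 fold changes of the 7 tested transporters, 13 had the opposite sign. The number of loci called in all was 110. It was 0 with the quasi-likelihood test, with voom, with the pools of a cow summed in the quasi-likelihood test, and in that test with a replicate block for pool number. It was 67 with DESeq2, 64 without pool C2.1, 55 with no filter but 1 count, 6 with at least 1 CPM in 7 pools, 341 with all 16 pools, and 62 to 153 with each cow left out. With library sizes over all loci, an alternative added after seeing the data, it was 110 with 15 pools and 356 with 16, and the transporter fold changes with 15 pools kept their signs. Among the sensing genes 1 (MTOR) was called with 16 pools under either library size.

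With all 16 pools the log2 fold changes of opposite sign were 0.0713 for SLC43A2, -0.22 for SLC38A2 and -0.64 for SLC1A5, and 0.0863, -0.26 and -0.69 with library sizes over all loci. SLC1A5 was also -0.00493 with voom, -0.0390 with the pools of a cow summed in both edgeR tests, -0.0740 without C2.1, and -0.35 to 0.30 with each cow left out. SLC43A2 was -0.25 to 0.13 with each cow left out. The cause was not tested. The differences of cow means of opposite sign were -4.16 CPM for SLC7A8 without C2.1, 1.41 CPM for SLC43A2 and -42.9 CPM for SLC1A5 with 16 pools, -28.8 CPM for SLC1A5 without C2.1, and -0.0846 for SLC1A5 on log2(CPM + 1). The methionine-carrying log2 ratio was -0.199 with system L alone and -0.198 without SLC38A2. The heavy and light chain correlation was 0.14 for SLC7A5 and -0.50 for SLC7A8 without the 2 farthest cows, chosen after seeing the data, and -0.036 for SLC7A8 on TMM-normalized CPM. It was -0.58 and 0.37 without C2.1, and -0.18 and 0.41 with 16 pools. The log2 ratio with each cow left out was -0.014 to 0.23 for the methionine-carrying sum and -0.43 to 0.37 for system ASC.

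Pools of the same number in different treatments did not deviate together on average (mean correlation -0.0076 over 28 pairs, against 0.0076 for different numbers). No spread is given for these means, so whether pools of a number shared a batch was not tested. SLC38A1 and SLC38A4 had too few reads for the filter of the main fit (summed CPM 1.49 and 2.58, where 15 was required). The voom intervals included 2-fold for 5 of the 7 tested transporters, all but SLC43A2 and SLC1A5. The correlation between pools of a cow that voom estimated was 0.0351, a single value for all loci. With this value the pools of a cow entered the intervals as nearly independent. No interval was made from the 4 cow means of each treatment. Whether such an interval would exclude 2-fold for SLC43A2 or SLC1A5 was not tested. In the exact-test fit, which does not enter those intervals, the biological coefficient of variation was 1.07.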
